A study of Mus musculus with 8 samples.

Results

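Potassium channel genes were taken as the genes whose symbol begins with Kcn, which covers pore-forming (alpha) and auxiliary subunits. The rule found 92 genes among the 33249 genes measured. Of these, 88 code for channel subunits and 4 (Kcnq1ot1, Kcnrg, Kcnd3os and Kcnmb4os2) code for none. Messenger RNA from mouse myocardium was sequenced in 8 libraries, with 2 libraries in each group. The mice carried loxP-flanked (fl/fl) alleles of Piezo1, a mechanically gated cation channel, in every group. By their labels, the fl/fl-Sham and fl/fl-MI mice were littermates without a Cre transgene. The CKO-Sham and CKO-MI mice, by label, carried Myh6-Cre, a tamoxifen-inducible Cre recombinase that the Myh6 promoter drives in cardiomyocytes. Esr1 levels, given below, go against these labels in several libraries, and Piezo1 was not lower in the libraries labelled CKO. Tamoxifen (75 mg/kg/day for 5 days) was given at 4 weeks of age, and whether the fl/fl mice received it was not stated in the sources used here. At 8 weeks of age the mice underwent sham surgery or myocardial infarction (MI), made by tying off the left anterior descending artery for good, and the MI hearts were taken on day 42. The region of the heart and the distance from the infarct were not stated, nor was whether the libraries of a group came from separate animals. P-values therefore measure the spread between these libraries, which may be technical.

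Potassium channels let potassium leave the cell and so set the resting potential and end the action potential. In the heart, voltage-gated alpha subunits carry the transient outward and delayed rectifier currents, and auxiliary subunits of the Kcne, Kcnip and Kcnab families alter their gating or their number at the membrane. Inward rectifiers hold the resting potential (Kcnj2 and Kcnj12), couple the membrane to ATP (Kcnj8 and Kcnj11, with the sulfonylurea receptors Abcc8 and Abcc9) and answer acetylcholine in the atria (Kcnj3 and Kcnj5). Tandem-pore channels carry background leak, and calcium-activated channels open when intracellular calcium rises. Loss of outward current prolongs the action potential, which is why these genes are studied in arrhythmia after MI.

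Count totals lay between 73821747 and 88117573 per library, and mitochondrially encoded genes took 43.1% to 46.4% of them in sham libraries and 19.9% to 24.2% in MI libraries. Levels are given below as CPM, counts scaled to the library size after TMM normalization, for comparing a gene between libraries, and as the authors' FPKM, which also corrects for length, between genes. The targeted gene was not lower in the libraries labelled CKO. The study reports its deletion from western blots of isolated cardiomyocytes. The counts here cover the whole gene in myocardium with other cell types, so they cannot tell whether cardiomyocytes lost it. Piezo1 CPM was 72.2 and 82.0 in fl/fl-Sham, 76.7 and 88.3 in CKO-Sham, 53.5 and 64.8 in the fl/fl-MI pair, and 56.3 and 64.6 in CKO-MI. Esr1, whose ligand-binding part the Cre fusion carries, was at 331, 707 and 402 CPM in fl/fl-MI 2, CKO-MI 1 and CKO-MI 2, and at 8.36 CPM or less in the other 5 libraries, both CKO-Sham libraries included. Genotype names throughout are therefore those of the labels. Libraries of a group correlated at 0.971 to 0.981 across tested genes (log CPM), except those of fl/fl-MI at 0.925. The library fl/fl-MI 2 held 2810 CPM of the atrial light chain Myl4 and 3834 CPM of the atrial factor Bmp10, against at most 48.0 and 18.8 CPM in the other 7 libraries, and results that rest on it are given with and without it. Where 4 values are listed for sham or MI, they follow the order fl/fl 1, fl/fl 2, CKO 1 and CKO 2. Without it, fl/fl-MI is 1 library whose spread is assumed to be that of the other groups.

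Of the 92 members, 30 had a mean FPKM of at least 0.5 and were tested among 14028 genes; all 30 code for subunits. They were 10 of 38 voltage-gated alpha genes, 6 of 12 voltage-gated auxiliary genes, 7 of 14 inward rectifier genes, 3 of 12 tandem-pore genes and 4 of 12 genes of the calcium-activated group, in which the sodium-activated Kcnt genes are included. In sham libraries the most abundant members per length were Kcnip2 (12.2 to 21.3 FPKM), an auxiliary subunit of the transient outward channel, Kcna5 (17.6 to 19.5 FPKM), an alpha subunit of a delayed rectifier, Kcnj8 (15.4 to 20.2 FPKM), a pore subunit of ATP-sensitive channels, and Kcnk3 (13.3 to 17.5 FPKM), an acid-sensitive leak channel. These ranges overlap, and their order changed from one sham library to the next. In the MI libraries other than fl/fl-MI 2, Kcnk3 stood first with 22.0, 25.7 and 32.9 FPKM. In fl/fl-MI 2 the first places went to Kcnj3 with 70.9 FPKM and Kcnh2 with 39.2 FPKM.

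Of the summed FPKM of subunit genes, voltage-gated alpha genes held 36.3% to 40.9% in sham and 27.7% to 29.7% after MI, without overlap. Within this group Kcna5 took 30.7% to 36.5% of the FPKM in sham and 3.39% to 16.9% after MI. A fall of the group apart from Kcna5 is therefore not shown. Inward rectifier genes held 28.5% to 31.4% in sham and 32.1% to 35.4% in 3 MI libraries, with 47.0% in fl/fl-MI 2. Tandem-pore genes, of which Kcnk3 was the most abundant, held 12.7% to 13.7% in sham, 18.0% to 21.8% in 3 MI libraries and 11.7% in fl/fl-MI 2. These shares lie within a library, so the scaling between libraries does not enter them. They are a description without a test.

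**Figure D1:**
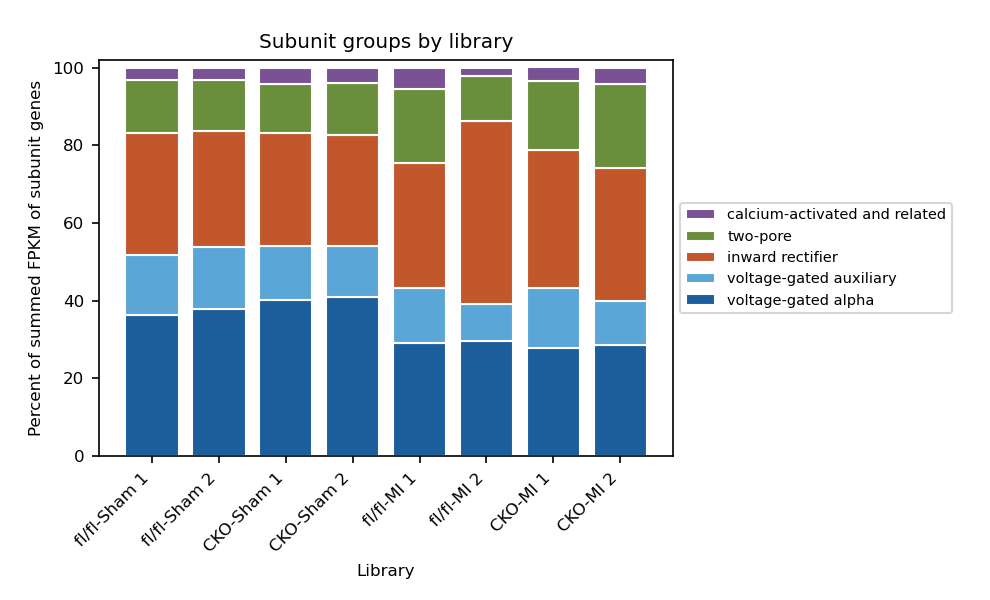
Stacked bars give the percent of the summed FPKM of the 88 subunit genes that each subunit group holds (vertical axis) in each of the 8 libraries (horizontal axis). The voltage-gated alpha segment, Kcna5 included, spans 36.3% to 40.9% before infarction (sham) and 27.7% to 29.7% after it. The inward rectifier segment reaches 47.0% in fl/fl-MI 2.

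The 250 bases before the start site of 5 members are shown, because 3 of them (Kcna5, Kcnj8 and Kcnmb1) fell after MI and the other two (Kcnj2 and Kcnip2) serve the resting and transient outward currents and did not pass the test. The sequences are RefSeq's on GRCm38.p6, read 5′ to 3′ on the strand of the gene. Capitals mark matches on either strand to TATAAA (the TATA box), GATAA (the GATA factor motif), CACGTG (an E-box), GGGCGG (the GC box) or the MEF2 site. Kcna5 lies at chr6:126535556-126535805 (minus strand), Kcnj8 at chr6:142571615-142571864 (minus), Kcnmb1 at chr11:33962763-33963012 (plus), Kcnj2 at chr11:111065914-111066163 (plus) and Kcnip2 at chr19:45816064-45816313 (minus). No exon of GENCODE M21 lies in these windows. The most abundant transcript of Kcnj8, Kcnmb1 and Kcnj2 starts at the end of the window, that of Kcnip2 is 41 bases from it and that of Kcna5 143 bases.
Kcna5: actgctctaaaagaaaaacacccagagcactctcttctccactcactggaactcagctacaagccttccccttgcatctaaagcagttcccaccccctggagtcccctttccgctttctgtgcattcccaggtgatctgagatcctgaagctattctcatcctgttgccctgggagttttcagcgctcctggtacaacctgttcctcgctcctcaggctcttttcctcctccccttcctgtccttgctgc
Kcnj8: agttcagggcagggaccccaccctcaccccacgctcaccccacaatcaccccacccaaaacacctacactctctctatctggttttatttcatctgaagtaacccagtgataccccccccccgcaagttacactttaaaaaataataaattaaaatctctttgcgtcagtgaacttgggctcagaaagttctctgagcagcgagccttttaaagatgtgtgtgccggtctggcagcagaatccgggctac
Kcnmb1: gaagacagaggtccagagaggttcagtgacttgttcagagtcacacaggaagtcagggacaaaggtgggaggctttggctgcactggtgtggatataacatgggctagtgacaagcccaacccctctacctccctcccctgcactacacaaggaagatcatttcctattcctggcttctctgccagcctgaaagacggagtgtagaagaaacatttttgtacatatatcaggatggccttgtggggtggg
Kcnj2: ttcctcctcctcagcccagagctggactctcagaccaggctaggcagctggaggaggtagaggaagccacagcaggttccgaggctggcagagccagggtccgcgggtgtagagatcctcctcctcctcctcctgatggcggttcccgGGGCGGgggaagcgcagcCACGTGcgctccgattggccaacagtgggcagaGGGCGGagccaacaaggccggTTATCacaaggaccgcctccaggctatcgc
Kcnip2: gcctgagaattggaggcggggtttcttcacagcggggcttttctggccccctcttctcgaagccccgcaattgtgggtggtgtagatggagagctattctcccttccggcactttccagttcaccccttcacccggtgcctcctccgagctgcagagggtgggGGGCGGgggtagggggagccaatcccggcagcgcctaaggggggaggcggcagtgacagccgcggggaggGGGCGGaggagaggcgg
The windows of Kcna5, Kcnj8 and Kcnmb1 held no match, with 53.2%, 49.2% and 50.8% G and C. This does not set members that fell apart. The windows of Kcnj15, which rose, and Kcnk1, which did not pass, also held no match (53.2% and 44.4% G and C). Motifs were not compared between members that fell and the others. Those of Kcnj2 and Kcnip2 held 65.6% and 66.8% G and C and 2 matches each to GGGCGG, and that of Kcnj2 also held 1 E-box and 1 GATAA, the latter read on the other strand. RefSeq lists 26 such windows for 20 tested members, since some have more than 1 start. Of these windows 9 held GGGCGG (34.6%), against 32.7% of 32851 windows of all genes. GATAA was in 2 (7.69%, against 22.6%), the E-box in 2 (7.69%, against 6.02%), and the TATA box and the MEF2 site in 0 (against 12.4% and 1.69%). No 2 of these motifs overlapped in the windows shown. A match is a run of letters and was not tested for binding.

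After MI, with both genotypes together, 10 of the 30 tested members passed edgeR's quasi-likelihood test at an adjusted p under 0.05. Kcnj12, Kcne4, Kcna7 and Kcnj15 were higher, and the lower members included Kcna5, Kcnv2, Kcnj8, Kcne1 and Kcnmb1. The 4 higher members are 13.3% of those tested, beside 22.0% of all 14028 genes, and the 6 lower are 20%, beside 18.3%, so the higher share is below the background and the lower share near it. The count of higher members was smaller without fl/fl-Sham 1, CKO-Sham 1, CKO-Sham 2 or CKO-MI 2, and larger without fl/fl-MI 1. The share of all genes in those refits was not counted. The median log2 fold change was -0.09 over the members and 0.03 over all genes. On the log2(FPKM + 1) scale that median over all genes is 0.41, which is why levels between libraries are given as CPM. By a plain comparison of ranges, 2 members lay higher in every MI library than in any sham library (6.67%, beside 20.9% of all genes) and 4 lay lower (13.3%, beside 19.5%). The sham and MI libraries also differed in makeup. Summed CPM of 5 endothelial markers was 2120 to 2723 in sham and 675 to 965 in MI, and that of 6 fibroblast markers was 1329 to 1467 and 2083 to 6120. In bulk tissue, fewer cells of a type and less RNA per cell cannot be told apart.

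**Figure D2:**
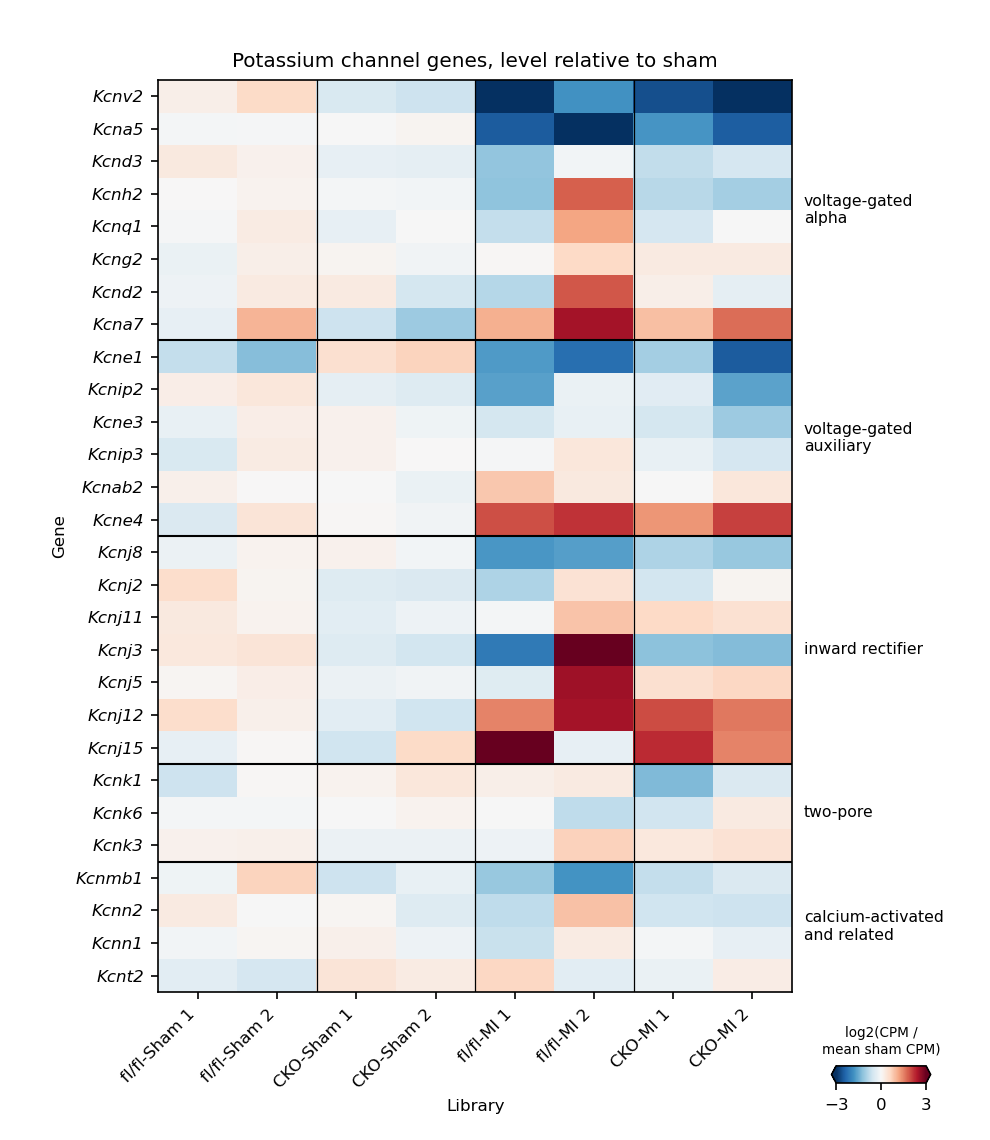
Colour gives log2 of CPM over the mean CPM of the 4 sham libraries for 28 of the tested members (rows, ordered by subunit group and by their change after MI) in each library (columns); colour is clipped at 3 on either side. Kcna5, Kcnv2 and Kcnj8 are blue and Kcne4 and Kcnj12 red in all 4 MI columns, while Kcnj3, Kcnh2 and Kcnj5 are red in fl/fl-MI 2.

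Among voltage-gated alpha genes, 3 of 10 fell, 1 rose and 6 did not pass. Kcna5 (ENSMUSG00000045534, chromosome 6 from 126532551 to 126535412 in GRCm38) codes for the alpha subunit of the ultrarapid delayed rectifier. Its CPM was 65.5 and 66.4 in fl/fl-Sham, 67.6 and 71.2 in CKO-Sham, 11.9 and 8.54 in the fl/fl-MI pair, and 19.9 and 12.1 in CKO-MI. The sham libraries lay close together and every MI library lay far below them. The log2 fold change was -2.40 (SE 0.19, adjusted p = 5.47e-04, edgeR), a 5.29-fold lower level. Within the libraries, Kcna5 took 30.7% to 36.5% of the voltage-gated alpha FPKM in sham and 3.39% to 16.9% after MI.

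Kcnv2, which codes for a silent subunit that modifies other alpha subunits, also fell. It was at 21.9, 28.5, 14.1 and 12.6 CPM in the sham libraries (fl/fl 1 and 2, then CKO 1 and 2) and at 1.77, 5.46, 3.11 and 2.35 CPM in the MI libraries in the same order, without overlap (log2 fold change -2.55, SE 0.35, adjusted p = 0.00226, edgeR). Kcna7, a shaker-type alpha subunit, was the member of this group that rose (log2 fold change 1.80, SE 0.46, adjusted p = 0.0204, edgeR). It was low, at 0.313 to 1.36 CPM in sham and 1.25 to 3.78 CPM in MI, and the ranges overlap. The call was lost without fl/fl-Sham 1, CKO-Sham 1, CKO-Sham 2 or CKO-MI 2 (adjusted p = 0.0679, 0.0642, 0.0771 and 0.0659).

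The alpha subunits of the transient outward current did not pass. Kcnd3 was at 16.9 to 25 CPM in sham and at 8.89, 19.3, 12.1 and 14.4 CPM in fl/fl-MI 1, fl/fl-MI 2, CKO-MI 1 and CKO-MI 2 (log2 fold change -0.55, adjusted p = 0.102, edgeR). Kcnd2 was at 4.57 to 7.90 CPM in sham and at 3.61, 24, 7.38 and 5.47 CPM after MI, with fl/fl-MI 2 alone above the sham range. Its log2 fold change was 0.52 with all libraries (adjusted p = 0.464, edgeR), -0.44 without fl/fl-MI 2 and 0.9 without fl/fl-MI 1. Kcng2, another silent subunit, was at 33.7 to 44.3 CPM in sham and 40.2 to 58.9 CPM in MI (log2 fold change 0.31, adjusted p = 0.146, edgeR). The change was 0.42 without fl/fl-MI 1 and 0.16 without fl/fl-MI 2. Kcng2 passed with limma on log2(FPKM + 1) (0.81, adjusted p = 0.00309), where the median of all genes is 0.41.

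Kcnh2 and Kcnq1 carry the rapid and slow delayed rectifiers of larger mammals. Kcnh2 was at 48.1 to 55.0 CPM in the sham libraries, at 21.9, 28.3 and 25.2 CPM in fl/fl-MI 1, CKO-MI 1 and CKO-MI 2, and at 175 CPM in fl/fl-MI 2. The value after MI turned on that library, with a log2 fold change of 0.02 over all libraries (adjusted p = 0.982) and -1.07 without fl/fl-MI 2 (adjusted p = 1.69e-04, edgeR). Kcnq1 behaved likewise, at 15.4 to 21.8 CPM in sham, 11.1, 12.9 and 18.1 CPM in the same 3 MI libraries and 41.6 CPM in fl/fl-MI 2. Its log2 fold change was 0.15 (adjusted p = 0.770) with that library and -0.47 (adjusted p = 0.0441) without it. Kcnq1 shares its locus with Kcnq1ot1, and whether counting used strand is not given in the sources used here.

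Among the 6 voltage-gated auxiliary genes tested, Kcne4 rose and Kcne1 fell. Kcne4 (ENSMUSG00000047330, chromosome 1 from 78816758 to 78820028), which codes for a subunit that inhibits several delayed rectifiers, was at 3.04 and 5.44 CPM in fl/fl-Sham, 4.22 and 3.83 CPM in CKO-Sham, 15.8 and 18.6 CPM in the fl/fl-MI pair, and 10.4 and 17.2 CPM in CKO-MI. Every MI library lay above every sham library, by 3.73-fold in the fit (log2 fold change 1.9, SE 0.25, adjusted p = 0.00189, edgeR). Kcne1, the partner of Kcnq1 in the slow delayed rectifier, was at 2.40 and 1.63 CPM in fl/fl-Sham, 5.52 and 6.25 CPM in CKO-Sham, 1.22 and 0.821 CPM in the fl/fl-MI pair, and 1.94 and 0.701 CPM in CKO-MI. Its sham levels differed between genotypes and the sham and MI ranges overlap (log2 fold change -1.57, SE 0.37, adjusted p = 0.0144, edgeR). Without fl/fl-Sham 1 it did not pass (adjusted p = 0.0555). The ratio of Kcne4 to Kcne1 FPKM was 0.740 to 4.06 in sham and 6.56 to 29.9 in MI, without overlap.

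Kcnip2, which binds Kcnd channels and sets the size of the transient outward current, was at 87.1 and 95.0 CPM in fl/fl-Sham, 62.0 and 57.2 CPM in CKO-Sham, 24.5 and 65.6 CPM in the fl/fl-MI pair, and 59.4 and 24.8 CPM in CKO-MI. The replicates of both MI groups lay more than 2-fold apart. It did not pass over all libraries (log2 fold change -0.76, SE 0.36, adjusted p = 0.136, edgeR) and passed without fl/fl-MI 2 (log2 fold change -1.20, adjusted p = 0.0107). Kcne3, Kcnip3 and Kcnab2 did not pass, with log2 fold changes of -0.57, -0.09 and 0.37.

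Among the 7 inward rectifier genes tested, Kcnj12 and Kcnj15 rose and Kcnj8 fell. Kcnj8 (ENSMUSG00000030247, chromosome 6 from 142564837 to 142571614), the pore subunit of the ATP-sensitive channel of vascular mural cells, was at 51.0 and 62.5 CPM in fl/fl-Sham, 63.4 and 54.8 CPM in CKO-Sham, 17.2 and 18.4 CPM in the fl/fl-MI pair, and 30.3 and 26.3 CPM in CKO-MI. The sham and MI libraries did not overlap, and the fold change was 2.58-fold lower (log2 fold change -1.37, SE 0.11, adjusted p = 6.12e-04, edgeR). The summed CPM of 4 pericyte markers moved with it, at 1087 to 1286 in sham and 297 to 614 in MI. Of these 4, Rgs5 fell (log2 fold change -1.69, adjusted p = 7.39e-04, edgeR), while Pdgfrb, Cspg4 and Notch3 did not pass, with log2 fold changes of -0.14, 0.34 and -0.25. Their part in the Kcnj8 result was not tested.

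Kcnj11, the pore subunit of the cardiomyocyte ATP-sensitive channel, was at 39.1 to 59.6 CPM in sham and at 46.5, 88.1, 73.7 and 66.5 CPM in fl/fl-MI 1, fl/fl-MI 2, CKO-MI 1 and CKO-MI 2. Its log2 fold change of 0.51 (SE 0.20) did not pass (adjusted p = 0.0800, edgeR). The lowest MI library lay within the sham range and the other 3 above it. The change was 0.69 without fl/fl-MI 1 and 0.24 without fl/fl-MI 2. Kcnj11 passed with limma on log2(FPKM + 1) (0.97, adjusted p = 0.00195), where the median of all genes is 0.41. The ratio of Kcnj11 to Kcnj8 FPKM was 0.810, 0.578, 0.428 and 0.559 in the sham libraries and 1.88, 3.32, 1.69 and 1.75 in the MI libraries. Kcnj8 was thus the more abundant of the pair in every sham library and Kcnj11 in every MI library.

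Kcnj12 and Kcnj2 code for the main subunits of the inward rectifier that holds the resting potential. Kcnj12 (ENSMUSG00000042529, chromosome 11 from 61022564 to 61071131) was at 5.18 and 3.99 CPM in fl/fl-Sham, 2.90 and 2.39 CPM in CKO-Sham, 10.2 and 20.3 CPM in the fl/fl-MI pair, and 14.1 and 10.8 CPM in CKO-MI. Every MI library lay above every sham library, by 3.96-fold in the fit (log2 fold change 1.99, SE 0.26, adjusted p = 0.00179, edgeR). Kcnj2 did not pass, at 12.2 to 23.7 CPM in sham and 8.65 to 22.2 CPM in MI (log2 fold change -0.10, SE 0.31, adjusted p = 0.821). Kcnj12 FPKM over Kcnj2 FPKM was 0.387 to 0.457 in sham and 2.35, 1.81, 2.47 and 1.23 after MI, so the order of the pair was opposite in sham and MI. Kcnj15, an inward rectifier best known from kidney and stomach, was at 2.06 to 4.66 CPM in sham and at 34.0, 2.64, 14.8 and 8.85 CPM in fl/fl-MI 1, fl/fl-MI 2, CKO-MI 1 and CKO-MI 2. It passed narrowly (log2 fold change 2.24, SE 0.72, adjusted p = 0.0441), and its log2 fold change without fl/fl-MI 1 was 0.82 (adjusted p = 0.0728). Leaving out any other library except fl/fl-MI 2 also ended the call (adjusted p = 0.0751 to 0.147).

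Kcnj3 and Kcnj5 form the acetylcholine-activated channel of atria and nodes. Kcnj3 (ENSMUSG00000026824, chromosome 2 from 55435970 to 55598145) was at 43.8 and 45.7 CPM in fl/fl-Sham, 26.5 and 23.7 CPM in CKO-Sham, 8.00 and 341 CPM in the fl/fl-MI pair, and 14.9 and 14.1 CPM in CKO-MI. The 3 other MI libraries lay below every sham library and fl/fl-MI 2 lay 7.45-fold above the highest of the other 7. The log2 fold change was 0.58 (adjusted p = 0.614) with that library and -1.64 (adjusted p = 7.46e-05, edgeR) without it. Kcnj5 was at 21.1 to 27.6 CPM in sham and at 18.6, 139, 33.4 and 36.8 CPM in the MI libraries. Its log2 fold change was 1.14 with all libraries (adjusted p = 0.121, edgeR), 0.10 without fl/fl-MI 2 and 1.53 without fl/fl-MI 1.

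None of the 3 tandem-pore genes tested passed. Kcnk3, the most abundant, was at 67.5 to 84.6 CPM in sham and at 68.3, 122, 94.1 and 103 CPM in the MI libraries (log2 fold change 0.37, SE 0.18, adjusted p = 0.144, edgeR). None of the 3 had an unadjusted p under 0.05, and DESeq2 also called 0 of them. Kcnk3 passed without fl/fl-MI 1 (log2 fold change 0.53, adjusted p = 0.00241) and with limma on log2(FPKM + 1) (0.86, adjusted p = 0.00338), where the median of all genes is 0.41. Kcnk1 and Kcnk6 had log2 fold changes of -0.27 and -0.22. Kcnk2, a stretch-activated member, had a mean of 0.385 FPKM and was not tested. It was at 2.49 to 4.15 CPM in sham and 0.652 to 1.75 CPM in MI. Of the 4 genes tested in the calcium-activated group, Kcnmb1 fell. This auxiliary subunit of the large-conductance channel of smooth muscle was at 2.76 and 4.81 CPM in fl/fl-Sham, 1.96 and 2.58 CPM in CKO-Sham, 1.37 and 0.869 CPM in the fl/fl-MI pair, and 1.84 and 2.23 CPM in CKO-MI, with overlapping ranges (log2 fold change -0.96, SE 0.29, adjusted p = 0.0343, edgeR). The call held without fl/fl-Sham 1 or fl/fl-MI 1 and was lost without any of the other 6 libraries (adjusted p = 0.0506 to 0.130). The summed CPM of 4 smooth muscle markers was 154 to 300 in sham and 160 to 260 in MI, and 1 of them, Myh11, fell (log2 fold change -0.92, adjusted p = 0.0476); their part in the Kcnmb1 result was not tested. Its pore subunit Kcnma1 was not tested (mean 0.161 FPKM, 1.31 to 2.22 CPM in sham and 2 to 6.45 CPM in MI). The small-conductance genes Kcnn1 and Kcnn2 and the sodium-activated Kcnt2 did not pass (log2 fold changes -0.15, -0.16 and 0.17).

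In each genotype alone, Kcnj12 and Kcne4 rose and Kcna5, Kcnv2 and Kcnj8 fell. In fl/fl-MI against fl/fl-Sham, 2 of 30 members rose (6.67%, beside 10.1% of all genes) and 5 fell (16.7%, beside 8.45%). In CKO-MI against CKO-Sham, 2 rose (6.67%, beside 12.8%) and 5 fell (16.7%, beside 11.9%). Kcnmb1 was called in fl/fl and not in CKO (fl/fl log2 fold change -1.75, SE 0.41, adjusted p = 0.0304, and CKO -0.16, SE 0.40, adjusted p = 0.797). Kcne1 was called in CKO (log2 fold change -2.16, SE 0.52, adjusted p = 0.0270) and not in fl/fl (-0.98, SE 0.51, adjusted p = 0.215). The test of the difference between genotypes had an adjusted p = 0.688 for Kcne1 (-1.18 on the log2 scale, SE 0.72) and 0.574 for Kcnmb1, so neither change is shown to differ between them. Of the members called in both, log2 fold changes were -2.69 in fl/fl and -2.12 in CKO for Kcna5, -2.81 and -2.29 for Kcnv2, and -1.68 and -1.06 for Kcnj8. For Kcnj12 they were 1.73 and 2.24, and for Kcne4 2.02 and 1.78. Single libraries moved these counts. In fl/fl, fewer rose and fewer fell without either fl/fl-Sham library, more rose without either fl/fl-MI library and more fell without fl/fl-MI 2. In CKO, fewer rose and fewer fell without either CKO-Sham library or CKO-MI 2, and more rose without either fl/fl-MI library. The share of all genes in those refits was not counted.

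**Figure D3:**
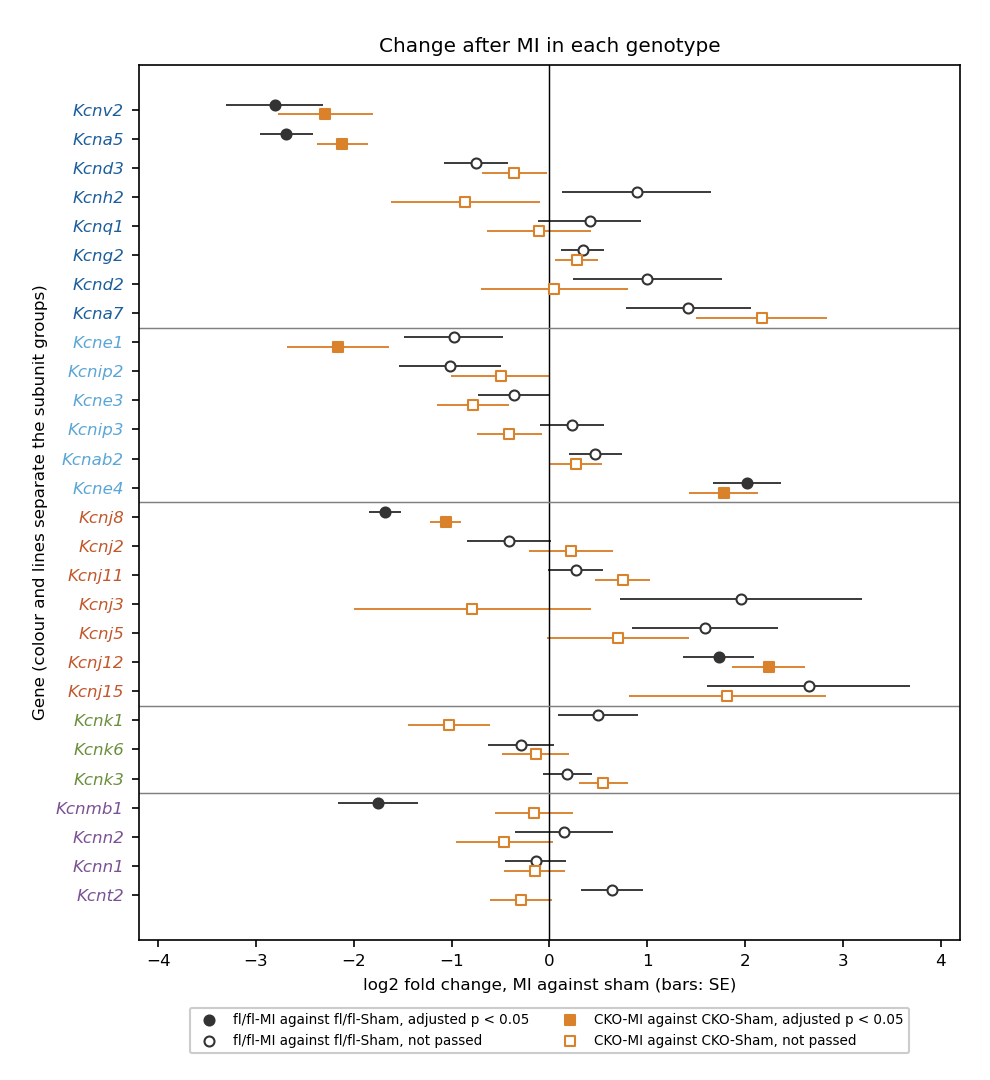
Points give the log2 fold change after MI (horizontal axis) with its SE for 28 of the tested members (vertical axis, grouped by subunit group), for fl/fl (circles) and CKO (squares), filled where the adjusted p was under 0.05. Kcnv2, Kcna5 and Kcnj8 are filled on the left and Kcne4 and Kcnj12 on the right in both genotypes, and Kcnj3, which did not pass, has the widest SE in either genotype.

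The library fl/fl-MI 2 decided several of these values. In it, 11 of 30 members (36.7%) exceeded fl/fl-MI 1 more than 2-fold, beside 8.28% of all genes. In the other direction, 1 member (Kcnj15) was more than 2-fold below fl/fl-MI 1, and the share of all genes there was not counted. Kcnj3 was 42.6-fold, Kcnh2 8.00-fold, Kcnj5 7.45-fold, Kcnd2 6.65-fold and Kcnq1 3.75-fold higher, and so was the sulfonylurea receptor Abcc8 (8.40-fold, 113 CPM against 13.5). The summed CPM of the 5 atrial markers (Myl4, Myl7, Sln, Nppa and Bmp10) was 19857 in this library, 2547 to 4450 in the other MI libraries and 135 to 594 in sham. In the other MI libraries that sum was nearly all Nppa (4400, 4419 and 2520 CPM), which rose after MI, while Myl4 was at 10.2 to 12.5 CPM there against 10.8 to 48.0 CPM in sham, Myl7 at 3.90 to 5 against 3.56 to 21.6 CPM, Sln at 0.897 to 1.40 against 1.04 to 4.62 CPM, and Bmp10 at 10.3 to 12.6 against 13 to 18.8 CPM. None of the 5 was at 0 in any library. The summed CPM of 8 cardiomyocyte markers was 44581, against 19919 in fl/fl-MI 1, but its members diverged. Myh6 (18609 against 4976 CPM) and Atp2a2 (10962 against 2828 CPM) were higher, and the ventricular light chain genes Myl2 (801 against 1714 CPM) and Myl3 (886 against 1467 CPM) were lower, each at the lowest level of the 8 libraries. The 3 conduction system markers also diverged, with Hcn4 at 10.3 against 1.92 CPM and Shox2 at 3.25 against 5.37 CPM, and summed to 23.4 against 14.6. The part of these cells in the values of the members was not tested. With fl/fl-MI 2 left out, 4 members were higher after MI (13.3%, beside 26.9% of all genes) and 12 were lower (40%, beside 23.8%). The members that joined the lower side included Kcnj3, Kcnh2, Kcnd3, Kcnip2, Kcnq1 and Kcnn2 (Kcnn2 log2 fold change -0.68, adjusted p = 0.0318), while Kcnmb1 no longer passed (adjusted p = 0.0506). The log2 fold change of Kcnd3 was then -0.88 (adjusted p = 9.14e-04). The median log2 fold change of the 30 members was -0.43, beside 0.02 over all genes. Kcna5, Kcnv2, Kcnj8, Kcne4 and Kcnj12 were called without this library too.

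**Figure D4:**
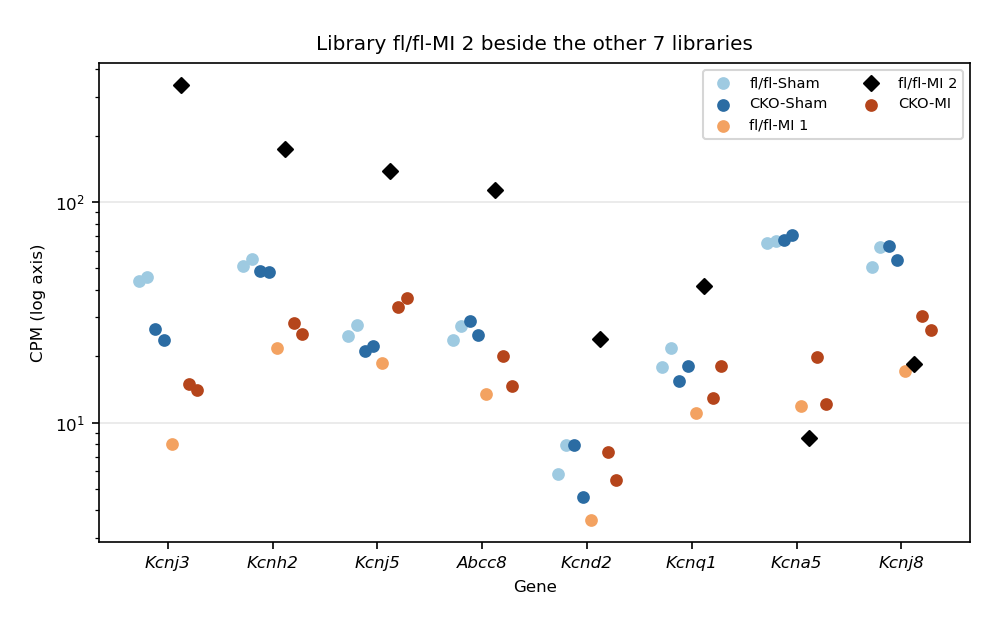
Points give CPM on a log axis (vertical) for 6 genes high in fl/fl-MI 2 and for Kcna5 and Kcnj8 (horizontal), 1 point for each library and black diamonds for fl/fl-MI 2. The diamonds for Kcnj3 (341 CPM), Kcnh2 (175 CPM), Kcnj5 (139 CPM) and Abcc8 (113 CPM) lie above the other 7 libraries, and those for Kcna5 and Kcnj8 lie among or below the other MI libraries.

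Between CKO-MI and fl/fl-MI, 0 members had an adjusted p under 0.05 with edgeR, 0 with limma and 1 with DESeq2 (Kcnj8, adjusted p = 0.0447). A member was therefore counted where the unadjusted p was under 0.05 and the level changed 2-fold or more. By the unadjusted p alone, 2 members were higher and 3 lower. The 3 lower members, which also changed at least 2-fold, were Kcnj3 (log2 fold change -3.59, SE 1.33, adjusted p = 0.556), Kcnh2 (-1.88, SE 0.78, adjusted p = 0.590) and Kcnk1 (-1.04, SE 0.41, adjusted p = 0.578), or 10% of members beside 2.72% of all genes. No member was called higher, beside 0.492% of all genes. For Kcnj3 and Kcnh2 the call rests on fl/fl-MI 2. Without it their log2 fold changes were 0.85 and 0.29, that is higher in CKO-MI than in the remaining fl/fl-MI library. Kcnk1, a weakly inward rectifying leak channel, was at 2.03 and 2.17 CPM in the fl/fl-MI pair and 0.709 and 1.33 CPM in CKO-MI, and with fl/fl-MI 2 left out its log2 fold change was -0.99, which no longer met the rule. The count of 3 lower members became smaller without CKO-MI 1, CKO-MI 2, either CKO-Sham library or fl/fl-MI 2. It became larger without fl/fl-MI 1, where members were also called higher. The share of all genes in those refits was not counted. Kcnj8 and Kcna5 were higher in CKO-MI by less than 2-fold, with log2 fold changes of 0.67 (SE 0.16, adjusted p = 0.489) and 0.65 (SE 0.25, adjusted p = 0.578). The CKO-MI and fl/fl-MI libraries did not overlap for either gene, but for Kcna5 they nearly met (11.9 CPM in fl/fl-MI 1, 12.1 CPM in CKO-MI 2). With 2 libraries against 2, the exact permutation test (two-sided) gives p = 0.33 for such a separation. The share of all genes without overlap between these groups was not counted. The Kcnj8 difference was 0.72 without fl/fl-MI 2 (adjusted p = 0.196) and 0.64 without fl/fl-MI 1 (adjusted p = 0.0753). Kcnd2 is of interest because PCR was also run for it in the study, which reports key ion channels as unaltered by Piezo1 deletion. It was at 3.61 and 24 CPM in the fl/fl-MI pair and 7.38 and 5.47 CPM in CKO-MI, so CKO-MI lay between the fl/fl-MI replicates. The study also used mass spectrometry, for the proteins of Kcnj11 and Kcnq1 among others. Their RNA had log2 fold changes of 0.06 (SE 0.28, adjusted p = 0.970) and -0.76 (SE 0.53, adjusted p = 0.736, edgeR). Kcnq1 was at 11.1 CPM in fl/fl-MI 1 and 41.6 CPM in fl/fl-MI 2.

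Between CKO-Sham and fl/fl-Sham, 1 member was higher by the same rule (3.33%, beside 0.528% of all genes) and 0 were lower (beside 0.364%). The member was Kcne1 (log2 fold change 1.54, SE 0.51, adjusted p = 1, edgeR). No further member had an unadjusted p under 0.05 with edgeR. By the p alone DESeq2 found 3 members, of which 1 also changed 2-fold. In the test of whether MI acted differently in the genotypes, 3 members had an unadjusted p under 0.05 (10%, beside 8.49% of all genes) and 0 an adjusted p under 0.05 (edgeR), with 3 and 0 for DESeq2. They were Kcnmb1 (1.60 on the log2 scale, SE 0.57), Kcnj8 (0.61, SE 0.22) and Kcnk1 (-1.53, SE 0.58), each with an adjusted p = 0.574, where a positive value is a larger or less negative change in CKO. The count of 3 was smaller without fl/fl-Sham 2 or either CKO-Sham library and larger without either fl/fl-MI library. The share of all genes in those refits was not counted. The 1 sham call was lost without fl/fl-Sham 2 or CKO-Sham 2. These comparisons share groups with those above and are not independent of them. For 1 gene alone, the exact permutation test (two-sided) of 2 libraries against 2 can reach p = 0.33 at the lowest.

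Several of the named members had 2 or more listed transcripts, and the share of each in the gene's FPKM is given without a test. Kcnj3 ENSMUST00000112632 was listed at 0 in all sham libraries and in fl/fl-MI 1, and took 27.1%, 20.8% and 9.53% of Kcnj3 in fl/fl-MI 2, CKO-MI 1 and CKO-MI 2. The main Kcnj3 transcript, ENSMUST00000067101, took 93.5% to 96.9% in sham and 60.1% to 96.2% in MI. Within Kcnip2, ENSMUST00000026247 took 0% to 1.79% in sham and 3.80% to 6.54% in MI. ENSMUST00000161886 took 0.170% to 0.410% and 1.72% to 3.53%, and neither overlapped. Both were low, with means of 0.519 and 0.24 FPKM, and the share of all transcripts without overlap was not counted. A further Kcnip2 transcript annotated as a retained intron, ENSMUST00000111906, varied from 21% to 83.4% among the sham libraries alone. For Kcnh2, the shorter transcript ENSMUST00000115098 took 10.3% to 52.6% in sham and 20.8% to 47.5% in MI, which overlap. How reads were divided among transcripts is not given in the sources used here.

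Of 12 genes coding for partners of these channels, 7 were tested. The scaffolds Akap9, which binds Kcnq1, and Dlg1, which anchors inward rectifiers, rose after MI. Abcc9 fell in the pooled test and in fl/fl, and was not called in CKO. Akap9 was at 31.8 to 37.0 CPM in sham and 47.5 to 54.3 CPM in MI (log2 fold change 0.59, SE 0.09, adjusted p = 0.00370, edgeR). Dlg1 was at 47.5 to 56.4 CPM in sham and 66.4 to 75.2 CPM in MI (log2 fold change 0.45, SE 0.09, adjusted p = 0.00739). In both cases no MI library lay within the sham range. Abcc9, the sulfonylurea receptor that joins Kcnj8 and Kcnj11, was at 195 and 180 CPM in fl/fl-Sham, 158 and 167 CPM in CKO-Sham, 88.9 and 99.8 CPM in the fl/fl-MI pair, and 189 and 144 CPM in CKO-MI. The fl/fl-MI libraries lay below all others, while of the CKO-MI libraries 1 lay within the sham range and 1 below it (pooled log2 fold change -0.48, SE 0.12, adjusted p = 0.0195). Its change was -0.99 in fl/fl (SE 0.17, adjusted p = 0.0130, edgeR) and 0.03 in CKO (SE 0.17, adjusted p = 0.903). The difference between genotypes was 1.02 (SE 0.24, adjusted p = 0.560), so the change is not shown to differ between them. With limma on log2(FPKM + 1) the pooled value was 0.08 (adjusted p = 0.515), where the median of all genes is 0.41. Kcnj8 and Abcc9 are neighbours on chromosome 6, and both were higher in CKO-MI than in fl/fl-MI at an unadjusted p under 0.05 (Abcc9 0.82, SE 0.17, adjusted p = 0.455). Abcc8, Irx5, Amigo1 and Lrrc52 did not pass, with log2 fold changes of 0.34, -0.38, -0.01 and -0.19. Irx5, a repressor of Kcnd2 in the ventricular wall, was at 1.16 CPM in fl/fl-MI 2 and 5.47 to 8.14 CPM in the other 7 libraries. Lrrc52, a partner of a testis channel, was at 1.79 and 0.902 CPM in fl/fl-Sham and 0.245 and 0.263 CPM in CKO-Sham (log2 fold change -2.40, unadjusted p under 0.05, adjusted p = 1). Dpp6, Dpp10, Lrrc26, Lrrc38 and Lrrc55 were under the limit of 0.5 FPKM.

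The remaining 62 members had a mean of 0.475 FPKM or less, with a median of 0.0962 FPKM, and 32 of all members lay under 0.1 FPKM. Of the cardiac-current genes in this range, Kcna4, the slowly recovering transient outward subunit, was at 0.127 to 1.02 CPM in sham and 0.638 to 3.05 CPM in MI, Kcnj4 at 0.422 to 0.836 and 0.216 to 0.543 CPM, and Kcnn3 at 2.48 to 4.13 and 1.63 to 3.83 CPM. Tested without the limit on FPKM, 8 of the 62 had an adjusted p under 0.05 after MI. The 2 higher are 3.23% of them, beside 1.59% of all 19221 genes under the limit, and the 6 lower are 9.68%, beside 1.78%; the genes were not matched on level. Kcnt1, Kcna2, Kcna6, Kcnk2, Kcna1 and Kcnip1 were lower, with log2 fold changes of -2.06, -2.07, -1.87, -1.46, -1.70 and -1.59. Kcne1l and Kcnma1 were higher, with 4.19 and 1.11. Kcne1l was at 0 CPM in both fl/fl-Sham libraries, 0.272 and 0.197 CPM in CKO-Sham and 0.302 to 0.416 CPM in MI. Its large fold change therefore rests on values at or near 0. Kcnt1 was at 4.34 to 6.25 CPM in sham and 1.24 to 1.28 CPM in MI, and Kcna2 at 6.05 to 11.2 and 1.38 to 3.19 CPM. Kcna1, Kcna2 and Kcna6 are alpha subunits best known from axons, and Sox10, a marker of Schwann cells, was at 1.81 to 4.41 CPM in sham, 1.36 CPM in fl/fl-MI 2 and 0.361 to 0.775 CPM in the other MI libraries. Th, a marker of sympathetic neurons, was at 0 in all libraries except those of CKO-MI (0.0473 and 0.309 CPM). Kcna1 was at 3.79 CPM and Kcna6 at 2.72 CPM in fl/fl-MI 2, against at most 0.548 and 0.935 CPM in the other MI libraries. The part of nerve in these values was not tested. Of the 4 genes that code for no subunit, the long antisense RNA Kcnq1ot1 was at 7.52 to 9.26 CPM in sham and 5.26 to 6.40 CPM in MI. Kcnrg was at 0.654 to 1.39 and 0.109 to 0.673 CPM, Kcnd3os had counts of 0 to 48, and Kcnmb4os2 had a count of 4 in fl/fl-MI 2 and 0 elsewhere.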

How the data were processed

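Libraries were grouped by their deposited labels, 8 in all with 2 in each of 4 groups. Per the labels and the study's methods, poly(A) RNA was made into U-labelled second-strand libraries and sequenced as paired ends, with cutadapt 1.9 and FastQC named in the submitters' processing notes. The aligner, counter, annotation and use of strand are not given in the sources used here. The authors deposited a whole-number count for each gene and transcript, not normalized, with low values piled at multiples of 4 (on average 1106 genes at a count of 4, beside 469 at 3 and 326 at 5), so that counting intervals were not formed. The authors also deposited FPKM, scaled to length and library size. All 92 Kcn gene identifiers are in GENCODE M21 (GRCm38), 81 with the same start and end, and 67 had a RefSeq promoter entry.

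Testing used the genes whose FPKM averaged 0.5 or more, with edgeR 4.0.16 (quasi-likelihood, TMM, all 8 libraries, a mean per group; R 4.3.3), and p-values were adjusted by Benjamini-Hochberg over 14028 genes. Each SE is the log2 fold change divided by the root of F. Calls after MI needed an adjusted p under 0.05, and calls between genotypes an unadjusted p under 0.05 and 2-fold. Alternatives were RLE, DESeq2 1.42.0, limma 3.58.1 on log2(FPKM + 1), counts divided by 4, mitochondrial genes removed, other FPKM limits, a replicate block, only the 4 libraries compared and each library left out. The tests were tried on simulated data. Python 3.11.15 and pandas 2.3.3 handled the tables. Named were 23 cardiac-current genes, up to 5 members of smallest p for each call, the 10 members of highest FPKM, the genes coding no subunit and 12 partner genes. The members called without the FPKM limit, and Kcna7, Kcnk6, Kcne3, Kcnip3, Kcnab2 and Kcnt2 where they did not pass, were named after their values were seen. Some members and markers enter the counts but are not reported here. The members and lists were chosen with earlier results of these data known. Same-numbered libraries did not pair, with correlations of their deviations from -0.143 to 0.0635.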

Additional observations from a re-analysis of the deposited data

Results flagged for a closer look

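Within the 4 sham and the 4 MI libraries, each of the 30 tested members was screened for a library far from the other 3 (a gap whose share of the range is above Dixon's 95% critical value). Of 60 such screens, 4 were past the limit, and all 4 were the library fl/fl-MI 2 among the MI libraries. Chance alone flags about 1 in 20. The 60 screens share the same libraries and are not independent, so the count of 4 cannot be judged against that rate. The share of all genes past the same limit was not counted. The 4 flagged values were Kcnj3 at 341 CPM (gap 0.979 of the range), Kcnh2 at 175 CPM (0.958), Kcnn2, a small-conductance calcium-activated channel of atria, at 8.59 CPM (0.940) and Kcnj5 at 139 CPM (0.849). The same library held the highest levels of the atrial markers. Whether atrial tissue in this library accounts for the 4 values was not tested.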

How the results depend on the processing

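Counts of called members are given as higher and lower. After MI with both genotypes together (4 and 6), limma on log2(FPKM + 1) gave 8 higher, no filter 7 and 11, and a mean of at least 5 FPKM, which left 9 members, 0 and 2. For MI in fl/fl (2 and 5), limma gave 4 higher, no filter 8 lower, 5 FPKM 0 and 2, and only the 4 libraries compared 0 and 2. For MI in CKO (2 and 5), limma gave 5 higher, no filter 10 lower, 5 FPKM 0 and 2, and only the 4 libraries 7 higher. The 3 members lower in CKO-MI than in fl/fl-MI became 10 without a filter, 1 at 5 FPKM, 1 with the replicate block, and 0 with limma, with only the 4 libraries, with an adjusted p and with the numbers of the CKO-MI libraries exchanged in the block, a pairing tried after seeing the data. Between sham groups (1 and 0), no filter gave 5 and 1, limma, 5 FPKM and an adjusted p 0 higher, and only the 4 libraries 1 lower. The 3 members of the interaction became 13 without a filter and 1 at 5 FPKM. Each library left out in turn gave 2 to 11 higher and 5 to 12 lower after MI, 0 to 10 and 2 to 12 in fl/fl, 0 to 7 and 0 to 7 in CKO, 0 to 2 and 0 to 6 between MI groups, 0 to 1 and 0 to 1 between sham groups, and 1 to 13 for the interaction. The most extreme counts after MI came without fl/fl-MI 1 and without fl/fl-MI 2. For most of these settings the share of all genes was not counted, so the counts do not set the members apart from genes in general. Kcnh2 (-1.07), Kcnj3 (-1.64) and Kcnq1 (-0.47) after MI, and Kcnh2 (0.29) and Kcnj3 (0.85) between MI groups, turned direction without fl/fl-MI 2 (without fl/fl-MI 1, Kcnj3 1.05 and Kcnq1 0.46 after MI, Kcnh2 -2.69 and Kcnj3 -4.54 between MI groups). With limma the median of all genes after MI is 0.41. The cause of the other shifts was not tested. Kcna5, Kcnj8, Kcne4, Kcnj12 and Kcnv2 passed after MI under each alternative that tested them; Kcne1 passed in 14 of 15, Kcna7 in 11, and Kcnmb1 and Kcnj15 in 6. RLE, DESeq2, counts divided by 4 and removal of mitochondrial genes moved no count by more than 1.5 times. With the replicate number as a block, 3 members were higher and 5 lower after MI, and no other count moved by more than 1.5 times than the one given. The genotype comparisons are limited by 2 libraries per group, by Esr1 levels that go against the labels and by fl/fl-MI 2. Piezo1 was also not lower in the libraries labelled CKO.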
